A study of Homo sapiens with 9 samples.

Results

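The genes described here are 33 enzymes, carriers and binding proteins of mitochondrial and peroxisomal fatty acid oxidation, a set chosen by gene symbol and matched to the Ensembl identifiers of the count files. They are 33 of 62703 gene identifiers, and 32 of them had enough counts to be tested. By role, 20 are classed as mitochondrial, 9 as peroxisomal and 2 as ketone body genes. The mitochondrial class includes SLC22A5, which brings carnitine into the cell at the plasma membrane. The other 2 are FABP1, a cytosolic fatty acid binding protein, and CYP4A11, which starts omega-oxidation. RNA was sequenced from HepG2 cells, an established human liver tumour line widely used as a hepatocyte model. One group was untreated (control), and the others received eliglustat at 20 µM or 30 µM for 72 h. Eliglustat inhibits glucosylceramide synthase, the enzyme that attaches glucose to ceramide, and is used to treat Gaucher disease. Each group had 3 libraries of the same line with no other agent or engineered allele in the labels, and the comparisons ask how each dose changed these genes against untreated cells and how the doses differed.

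Long-chain fatty acids enter mitochondria as carnitine esters, made by carnitine palmitoyltransferase 1 at the outer membrane and reversed by carnitine palmitoyltransferase 2 inside. Beta-oxidation then repeats a cycle of dehydrogenation, hydration, a further dehydrogenation and thiolytic cleavage, each turn releasing acetyl-CoA. The electrons of the opening step pass through the electron transfer flavoprotein to the respiratory chain. Peroxisomes run a similar cycle for very long and branched chains and for bile acid precursors, with an oxidase in place of the dehydrogenase, and hand shortened chains on as carnitine esters. In liver the resulting acetyl-CoA can be turned into ketone bodies, and PPARA is a nuclear receptor that switches on many of these genes.

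Counts assigned to genes ranged from 21103757 to 26782810 per library. Between 40.6% and 44.0% of the records lay outside a single gene, and the share that aligned to more than 1 place ranged from 12.4% to 12.8% in controls, from 13.3% to 15.5% at 20 µM and from 14.8% to 19.4% at 30 µM. All 10 hepatocyte markers on a fixed list (ALB, AFP, APOA1 and others) were detected, with a summed level of 33105 to 34105 CPM (counts scaled to a common library total) in controls, 37061 to 37515 at 20 µM and 41544 to 41903 at 30 µM. The sum is mostly APOB, and the markers did not move as one. At 20 µM 7 were higher and 2 lower than control, and at 30 µM 4 were higher and 4 lower (median log2 change -0.026), with ALB and AFP lower at both doses. Of the other cell types' markers, COL1A2 and DCN (fibroblast), PTPRC (leukocyte) and CFTR (cholangiocyte) had 0 counts in all 9 libraries. The 6 fibroblast markers summed to 1.01 to 1.40 CPM in controls, 1.06 to 1.5 at 20 µM and 3.14 to 3.51 at 30 µM, and the 5 endothelial markers to 4.49 to 5.54, 4.81 to 6.34 and 4.04 to 4.90. At 30 µM PDGFRB, the only fibroblast marker with enough counts to be tested, rose by 1.82. Of the 3 endothelial markers tested, VWF rose by 2.57 and the other 2 fell, by 1.21 and 0.55. The 6 leukocyte markers summed to 449 to 495, 437 to 473 and 636 to 666 CPM, nearly all of it LYZ, which rose by 0.48 at 30 µM. The 5 cholangiocyte markers summed to 562 to 587, 609 to 620 and 515 to 562 CPM. Of the 3 tested, KRT19 rose by 1.38 at 30 µM and the other 2 fell, SOX9 by 0.21 and the remaining gene by 0.10. The 13 mitochondrially encoded mRNAs summed to between 28223 and 38036 CPM in controls, 33657 and 37230 at 20 µM and 56701 and 63879 at 30 µM. The part of these shifts in the values below was not tested. Control 1, 20 µM 3 and 30 µM 3 deviated from their group means together, with correlations across genes of 0.37, 0.45 and 0.37 between them. These were the highest among all pairs of libraries from different groups. Each leading count is therefore also given without those 3 libraries. Whether the 3 libraries of a group are separate cultures is not in the labels. The p-values set each group difference against the scatter of these libraries, and that scatter may be technical.

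The promoters of the members on which the results turn are shown first, from RefSeq on GRCh38.p14, as windows from 250 bases before to 50 bases after the gene's start. CPT1A is shown because it rose most, ECHS1 because it had the highest level and fell, HADHA and HADHB because they share a promoter region and encode the subunits of 1 enzyme while their counts moved differently, and FABP1 because its window held a motif that no other member's window held. The windows lie at chr11:68844228-68844527 (CPT1A, minus strand), chr10:133373305-133373604 (ECHS1, minus), chr2:26244583-26244882 (HADHA, minus), chr2:26244689-26244988 (HADHB, plus) and chr2:88128013-88128312 (FABP1, minus). Each is written 5′ to 3′ on the gene's strand, and capitals mark the nuclear receptor half-site AGGTCA and the GC box GGGCGG on either strand.
CPT1A: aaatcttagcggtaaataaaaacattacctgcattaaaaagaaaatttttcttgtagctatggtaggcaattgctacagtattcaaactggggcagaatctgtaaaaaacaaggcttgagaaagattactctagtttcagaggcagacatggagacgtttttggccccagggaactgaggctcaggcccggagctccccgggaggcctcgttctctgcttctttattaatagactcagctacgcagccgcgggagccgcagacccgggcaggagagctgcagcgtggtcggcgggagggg
ECHS1: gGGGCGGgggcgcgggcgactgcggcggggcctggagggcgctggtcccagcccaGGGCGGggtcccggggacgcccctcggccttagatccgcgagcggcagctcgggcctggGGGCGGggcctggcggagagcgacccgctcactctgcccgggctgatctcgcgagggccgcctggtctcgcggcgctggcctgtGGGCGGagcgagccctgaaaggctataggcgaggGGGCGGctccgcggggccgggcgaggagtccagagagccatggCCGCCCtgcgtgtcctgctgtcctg
HADHA: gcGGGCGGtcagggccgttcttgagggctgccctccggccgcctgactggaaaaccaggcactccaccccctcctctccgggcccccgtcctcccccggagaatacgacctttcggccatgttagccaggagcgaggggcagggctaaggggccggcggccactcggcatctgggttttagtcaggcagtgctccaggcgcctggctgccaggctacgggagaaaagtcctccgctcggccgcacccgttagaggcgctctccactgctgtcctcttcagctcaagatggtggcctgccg
HADHB: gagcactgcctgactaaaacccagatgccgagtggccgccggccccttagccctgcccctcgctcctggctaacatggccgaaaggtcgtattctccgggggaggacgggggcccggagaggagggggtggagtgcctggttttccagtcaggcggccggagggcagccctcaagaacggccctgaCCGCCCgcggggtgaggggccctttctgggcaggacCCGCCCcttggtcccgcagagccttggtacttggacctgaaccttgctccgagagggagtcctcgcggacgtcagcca
FABP1: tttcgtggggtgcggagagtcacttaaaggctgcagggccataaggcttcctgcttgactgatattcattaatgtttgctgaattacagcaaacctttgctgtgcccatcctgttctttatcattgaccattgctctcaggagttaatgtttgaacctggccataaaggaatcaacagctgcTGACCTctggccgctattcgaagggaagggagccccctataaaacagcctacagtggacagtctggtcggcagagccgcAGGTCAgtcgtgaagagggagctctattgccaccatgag

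A promoter entry was matched for 26 of the 33 members, in 34 windows. The starts of HADHA and HADHB lie 307 bases apart on opposite strands, and their windows share 194 bases. The window of ECHS1 was 78.0% G and C and held 6 GC boxes, at positions from -249 to 25 relative to the start. The windows of CPT1A and FABP1 were each 50% G and C and held none. FABP1 held 2 half-sites, at -68 on the opposite strand and at 11 on its own strand. The half-site was present in 1 of 34 member windows (2.94%), against 13.8% of 35116 promoter windows of the same length in the table. GC boxes were present in 24 of 34 member windows (70.6%), against 45.0% of all windows. CCAAT boxes, searched on both strands like the others, were in 6 of 34 (17.6%), against 34.6%. The median G and C content was 66.7% in member windows and 58.7% in all windows. DR1, in which AGGTCA is repeated directly with 1 base between, was in 0 member windows and in 8 of all windows, and allowing a mismatch it was in 0 and 118. A DR1 match contains half-sites, and these letters are a description of the windows only. DECR1, ETFDH, ACOX2, EHHADH, ACAA1, CRAT and CYP4A11 had no entry.

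At 20 µM the members moved in both directions. Of the 32 tested, 12 rose, 7 fell and 13 did not pass the test, where all genes tested gave 17.2% higher and 16.9% lower at an adjusted p under 0.05 (edgeR quasi-likelihood, Benjamini-Hochberg over 17623 genes). The median log2 change was 0.070 over the members and 0.0087 over all genes. The members that rose were the import genes CPT1A, SLC25A20 and SLC22A5, the mitochondrial ACADVL, DECR1, ETFB and ACOT2, the peroxisomal ACOX2, ACOT8 and CRAT, the ketone body gene BDH1, and FABP1. Those that fell were HADHB, HADH, ECHS1, ECI2 and ETFA of mitochondria, EHHADH of peroxisomes and ACAT1. Without the 3 libraries that deviated together, 9 rose and 6 fell.

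At 30 µM most members fell. Against control 4 rose, 21 fell and 7 did not pass the test, where all genes gave 29.5% higher and 31.3% lower. The median log2 change was -0.34 over the members and -0.036 over all genes. The 4 that rose were CPT1A, ACADVL, ETFB and FABP1. The steepest falls were those of EHHADH at -1.50, HADH at -1.15, CROT at -1.11 and ECHS1 at -0.97. Without the 3 libraries 4 rose and 23 fell. When libraries were scaled by their size alone, which moved the median of all genes by -0.21, only CPT1A and ACADVL rose and 27 members fell, HADHA, ETFDH, ACOT2, ACOT8, CRAT and BDH1 among them, and all genes gave 3530 higher and 8022 lower in place of 5192 and 5515.

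Between the doses 2 members were higher at 30 µM than at 20 µM, CPT1A and ACADVL, while 27 were lower and 3 did not pass the test. All genes gave 28% higher and 28.9% lower in this comparison. The median log2 change was -0.39 over the members and -0.029 over all genes. HADHA, ETFB and ACOX3 did not pass. The comparisons share libraries, so they are not separate pieces of evidence. Without the 3 libraries 2 were higher and 25 lower, and with library size alone, which moved the median of all genes by -0.19, 2 were higher and 30 lower, with 3029 higher and 7690 lower among all genes in place of 4942 and 5099.

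**Figure D1:**
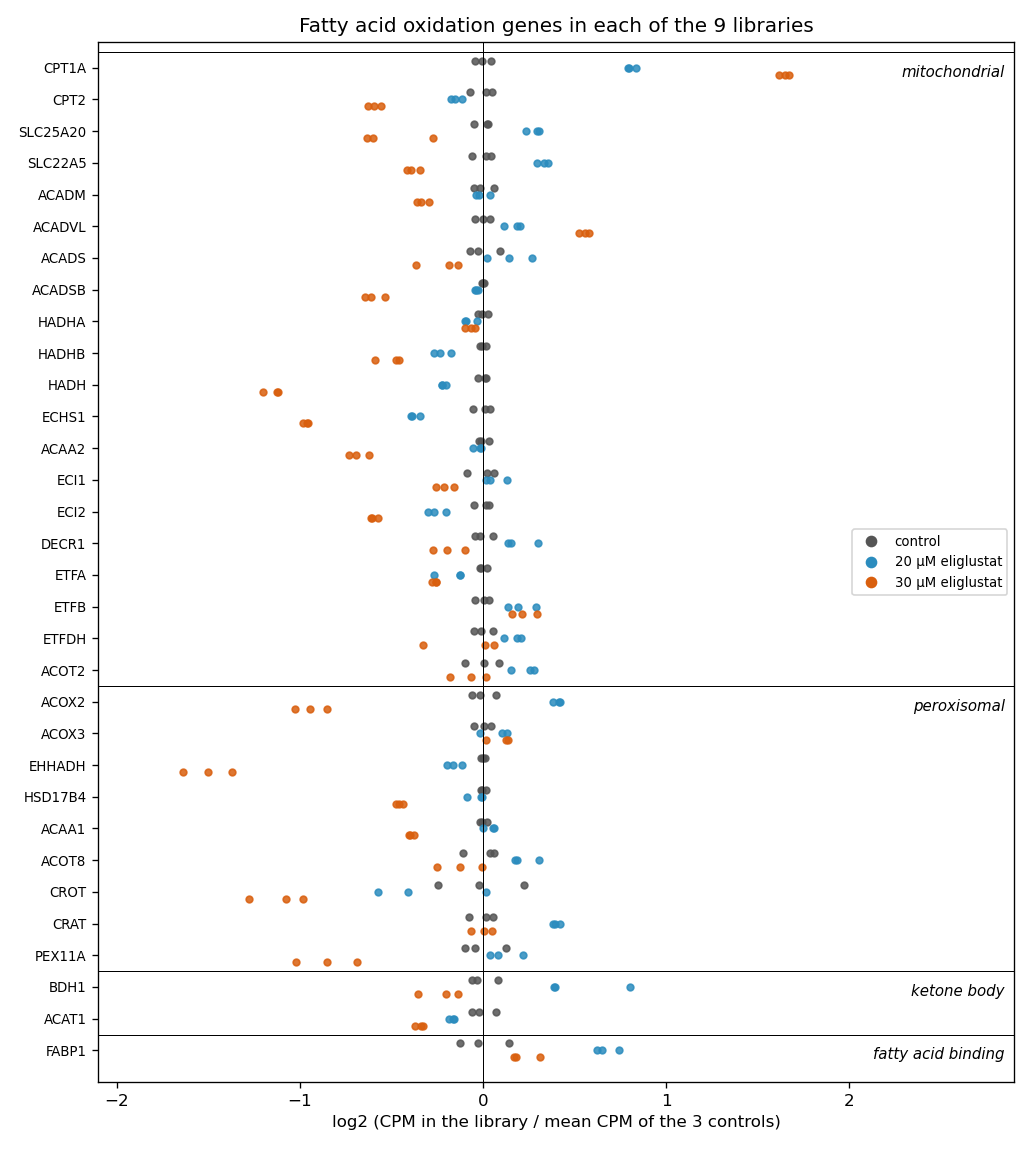
Each row is a tested member and each point a library, placed at the log2 ratio of its CPM to the mean of the 3 controls, with control libraries in grey, 20 µM in blue and 30 µM in orange. CPT1A lies to the right at both doses, and the 30 µM points of 21 of the 32 members form groups to the left of 0 that passed the test.

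Medians of the mitochondrial and the peroxisomal members lay close to 0 at 20 µM and below 0 at 30 µM. Of 20 mitochondrial members, 7 rose and 5 fell at 20 µM (median log2 change 0.030, or -0.0036 without control 1), 3 rose and 14 fell at 30 µM against control (-0.30), and 2 were higher and 16 lower at 30 µM than at 20 µM (-0.33). Of 9 peroxisomal members, 3 rose and 1 fell at 20 µM (0.075), 0 rose and 6 fell at 30 µM (-0.46), and 0 were higher and 8 lower between the doses (-0.43). The ketone body genes gave 1 higher and 1 lower at 20 µM, 0 higher and 1 lower at 30 µM, and 2 lower between the doses. Summed over members, mitochondrial transcripts were at 2122 ± 14.5, 2052 ± 41.8 and 1792 ± 14.1 CPM (mean ± SD, n = 3) in control, 20 µM and 30 µM libraries. Peroxisomal transcripts were at 534 ± 4.55, 552 ± 13 and 387 ± 2.19 CPM. The ratio of the mitochondrial to the peroxisomal sum was 3.95, 3.94 and 4.04 in controls, 3.63, 3.78 and 3.74 at 20 µM, and 4.61, 4.67 and 4.62 at 30 µM. The ratio was lowest in the 20 µM libraries and highest in the 30 µM libraries, with no overlap between the 3 groups, though an exact two-sided permutation test of 3 against 3 libraries cannot go below 0.1. ECI2 and CRAT are found in both organelles. With ECI2 counted as peroxisomal and CRAT as mitochondrial, an alternative for this ratio chosen after seeing the data, it was 3.23, 3.22 and 3.33 in controls, 3.24, 3.35 and 3.29 at 20 µM and 4.04, 4.04 and 4.06 at 30 µM. The controls and the 20 µM libraries then overlapped, and the 30 µM libraries remained above both. The medians at 30 µM against control became -0.24 and -0.59.

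**Figure D2:**
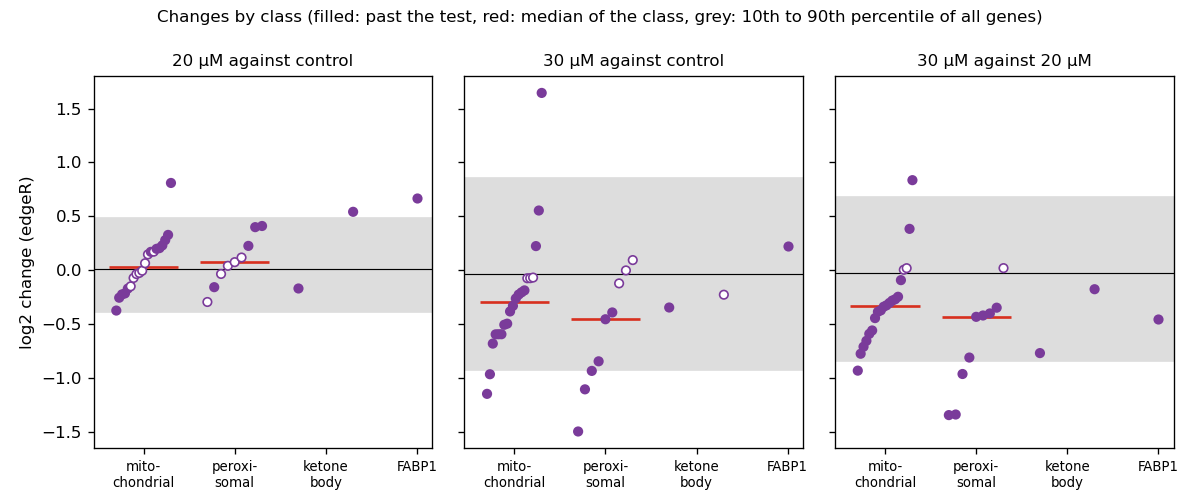
Log2 changes of the members by class in each comparison, 1 point per gene, filled where the gene passed the test, with the class median as a red line where a class has over 2 members and the range from the 10th to the 90th percentile of all genes tested in grey. The median of the mitochondrial class is 0.030, -0.30 and -0.33 and that of the peroxisomal class 0.075, -0.46 and -0.43 from left to right.

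The genes of carnitine supply and of fatty acid import into mitochondria moved apart. CPT1A (ENSG00000110090.13, chr11:68754620-68844410, minus strand), the liver form of carnitine palmitoyltransferase 1 and the main control point of mitochondrial oxidation, was at 41.1, 42.3 and 43.8 CPM in controls, 73.5, 73.8 and 75.7 at 20 µM and 133, 135 and 130.0 at 30 µM. Its libraries rose stepwise with dose with no overlap between groups. The log2 change was 0.81 (SE 0.044, adjusted p = 6.30e-16) at 20 µM and 1.65 (SE 0.043, adjusted p = 6.41e-26) at 30 µM, which is 1.75-fold and 3.13-fold, and the step between the doses was 0.84 (SE 0.041, adjusted p = 4.25e-18). No other member had as large a change upward in any of the 3 comparisons. CPT2 (ENSG00000157184.7, chr1:53196429-53214197, plus strand), which regenerates the acyl-CoA in the matrix, was at 19.96, 18.3 and 19.5 CPM in controls, 17.05, 17.8 and 17.3 at 20 µM and 13.1, 12.5 and 12.7 at 30 µM. Its 30 µM libraries lay below all others, with a log2 change of -0.59 (SE 0.078, adjusted p = 4.76e-08), while the value at 20 µM was -0.15 (adjusted p = 0.129). An antisense gene overlaps 11% of its exon bases.

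The carnitine carriers SLC25A20 and SLC22A5, of which only SLC25A20 is mitochondrial, were higher at 20 µM and lower at 30 µM. SLC25A20 (ENSG00000178537.10, chr3:48856931-48898993, minus strand), the carrier that exchanges acylcarnitine for carnitine across the inner membrane, was at 15.01, 14.3 and 15.1 CPM in controls, 18.3, 18.1 and 17.4 at 20 µM and 12.3, 9.56 and 9.78 at 30 µM. Its 20 µM libraries lay above the controls and its 30 µM libraries below them. The log2 change was 0.28 (SE 0.087, adjusted p = 0.0116) and -0.50 (SE 0.092, adjusted p = 1.98e-05). Without control 2 the 20 µM change was 0.26 (adjusted p = 0.0522). SLC22A5 (ENSG00000197375.14, chr5:132369752-132395614, plus strand), the plasma membrane carnitine transporter, was at 23.4, 21.8 and 22.97 CPM in controls, 27.9, 29.1 and 28.6 at 20 µM and 17.3, 17.1 and 17.9 at 30 µM. The 3 groups did not overlap, with 20 µM highest and 30 µM lowest. The log2 change was 0.33 (SE 0.064, adjusted p = 0.000116) at 20 µM, -0.38 (SE 0.068, adjusted p = 9.39e-06) at 30 µM and -0.71 (SE 0.067, adjusted p = 4.82e-11) between the doses.

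Among the acyl-CoA dehydrogenases, which open each turn of the cycle for chains of different length, the very long-chain enzyme rose and the others fell at 30 µM. ACADVL (ENSG00000072778.20, chr17:7217125-7225273, plus strand) was at 137, 133 and 129 CPM in controls, 144, 152 and 153 at 20 µM and 191, 199 and 196 at 30 µM. Its groups did not overlap and rose with dose, by 0.17 (SE 0.037, adjusted p = 0.000435) and 0.55 (SE 0.037, adjusted p = 8.00e-15) on the log2 scale. ACADSB (ENSG00000196177.13, chr10:123008979-123058311, plus strand), which acts on short branched chains from isoleucine, was at 334, 336 and 336 CPM in controls, 327, 325 and 329 at 20 µM and 232, 219 and 215 at 30 µM. The 30 µM libraries lay far below the rest, with a log2 change of -0.60 (SE 0.033, adjusted p = 6.91e-17), and the value at 20 µM was -0.036 (adjusted p = 0.445). ACADM, the medium-chain enzyme, and ACADS, the short-chain enzyme, fell by 0.33 and 0.23 at 30 µM, and at 20 µM their values were -0.0052 and 0.15, neither past the test. The call for ACADS at 30 µM was lost without control 3 (-0.18, adjusted p = 0.0577) or 30 µM 1 (-0.16, adjusted p = 0.0783), and without 20 µM 1 its 20 µM value passed (0.21, adjusted p = 0.0363).

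The later steps of the mitochondrial cycle held the steepest mitochondrial falls and 1 gene that passed no test. ECHS1 (ENSG00000127884.5, chr10:133362480-133373689, minus strand), the short-chain enoyl-CoA hydratase, was at 254, 271 and 266 CPM in controls, 201, 201 and 208 at 20 µM and 133, 135 and 136 at 30 µM. The groups did not overlap and fell with dose, with log2 changes against control of -0.37 (SE 0.035, adjusted p = 1.47e-10) and -0.97 (SE 0.035, adjusted p = 6.52e-22), the latter a level 1.95-fold lower. HADH (ENSG00000138796.18, chr4:107989714-108035175, plus strand), the hydroxyacyl-CoA dehydrogenase for medium and short chains, was at 86.2, 88.8 and 88.8 CPM in controls, 76.4, 75.4 and 75.3 at 20 µM and 40.5, 40.3 and 38.3 at 30 µM. It also fell stepwise with no overlap, with log2 changes of -0.22 (SE 0.043, adjusted p = 0.000133) and -1.15 (SE 0.045, adjusted p = 5.10e-21). ACAA2 (ENSG00000167315.18, chr18:49782167-49813960, minus strand), the matrix thiolase, was at 75.8, 76.4 and 78.97 CPM in controls, 76.6, 74.2 and 76.3 at 20 µM and 46.4, 50.1 and 47.7 at 30 µM. Its control and 20 µM libraries overlapped, and the 30 µM libraries were lower, with a log2 change of -0.68 (SE 0.046, adjusted p = 8.53e-15).

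HADHA and HADHB encode the alpha and beta subunits of the mitochondrial trifunctional protein, which carries out the later steps for long chains, and they are transcribed in opposite directions from the shared region printed above. HADHA (ENSG00000084754.12, chr2:26190635-26244726, minus strand) was at 341, 328 and 334 CPM in controls, 314, 313 and 327 at 20 µM and 313, 324 and 320.1 at 30 µM. The dose groups overlapped each other and lay below the controls, with log2 values of -0.072 (SE 0.032, adjusted p = 0.0855) and -0.068 (SE 0.032, adjusted p = 0.0688), neither past the test. Upper-quartile scaling or library size alone brought the 30 µM value past the test, at -0.13 and -0.28, and at 20 µM library size alone (-0.089) or leaving out 20 µM 3 (-0.098) did so. HADHB (ENSG00000138029.14, chr2:26243170-26290468, plus strand) was at 168, 167 and 171 CPM in controls, 140.1, 143 and 149 at 20 µM and 121, 123 and 112 at 30 µM. It fell at both doses without overlap, with log2 changes of -0.22 (SE 0.039, adjusted p = 1.89e-05) and -0.51 (SE 0.039, adjusted p = 3.27e-13). Within a library, the count of HADHA over that of HADHB was 2.03, 1.96 and 1.96 in controls, 2.24, 2.19 and 2.19 at 20 µM and 2.58, 2.64 and 2.86 at 30 µM. The ratio does not depend on library scaling, and its 3 groups did not overlap.

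The auxiliary enzymes for unsaturated chains all fell at 30 µM. ECI2 (ENSG00000198721.13, chr6:4115689-4135597, minus strand), an enoyl-CoA isomerase that moves double bonds and is found in both organelles, was at 134, 136 and 128 CPM in controls, 108, 110.1 and 115 at 20 µM and 86.99, 89.4 and 87.1 at 30 µM. The groups did not overlap and fell with dose, with log2 changes of -0.26 (SE 0.039, adjusted p = 3.31e-06) and -0.59 (SE 0.04, adjusted p = 9.18e-15). An opposite-strand gene, C6orf201, overlaps 27.1% of its exon bases. The mitochondrial isomerase ECI1 fell by 0.21 at 30 µM, and the dienoyl-CoA reductase DECR1 rose by 0.20 at 20 µM (adjusted p = 0.0245) and fell by 0.19 at 30 µM (adjusted p = 0.0233). Both DECR1 calls were close to the threshold. The 20 µM call was lost without control 1 (adjusted p = 0.0911), control 2 (adjusted p = 0.0738), 20 µM 3 (adjusted p = 0.174) or the 3 libraries that deviated together (adjusted p = 0.307). The 30 µM call was lost without control 3 (adjusted p = 0.0875), 30 µM 2 (adjusted p = 0.121) or 30 µM 3 (adjusted p = 0.0553), with DESeq2 (adjusted p = 0.0897) and with no filter on low counts (adjusted p = 0.055).

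The electron transfer genes split as well. ETFB, the beta subunit of the electron transfer flavoprotein, rose by 0.20 (SE 0.043, adjusted p = 0.000258) at 20 µM and 0.22 (SE 0.043, adjusted p = 3.34e-05) at 30 µM. Its alpha subunit ETFA fell by 0.17 (SE 0.039, adjusted p = 0.000697) and 0.26 (SE 0.039, adjusted p = 5.48e-07). Between the doses ETFA was at -0.092 (adjusted p = 0.0456), a call lost under 10 of 14 alternatives, with adjusted p up to 0.282. With library size alone the 30 µM value of ETFB was 0.013 (adjusted p = 0.795). The count of ETFB over that of ETFA was 0.718, 0.691 and 0.713 in controls, 0.847, 0.969 and 0.943 at 20 µM and 0.943, 0.981 and 1.05 at 30 µM. All treated libraries lay above all controls, and the doses overlapped. ETFDH, which passes the electrons on to ubiquinone, passed the test only between the doses, at -0.25 (adjusted p = 0.0208), and that call was lost without 20 µM 1 (-0.23, adjusted p = 0.0588), 20 µM 3 (-0.24, adjusted p = 0.0504), 30 µM 3 (-0.13, adjusted p = 0.228) or the 3 libraries that deviated together (-0.13, adjusted p = 0.297), and with DESeq2 (-0.23, adjusted p = 0.0631). The thioesterase ACOT2, which frees fatty acids from CoA in the matrix, rose by 0.23 at 20 µM (adjusted p = 0.00122) and was at -0.074 at 30 µM (adjusted p = 0.263). Without the 3 libraries that deviated together the 20 µM value was 0.15 (adjusted p = 0.0634), and with upper-quartile scaling the 30 µM value was -0.14 and passed (adjusted p = 0.0375). ACOT2 has a near-identical neighbour, ACOT1, so reads can be split between them.

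**Figure D3:**
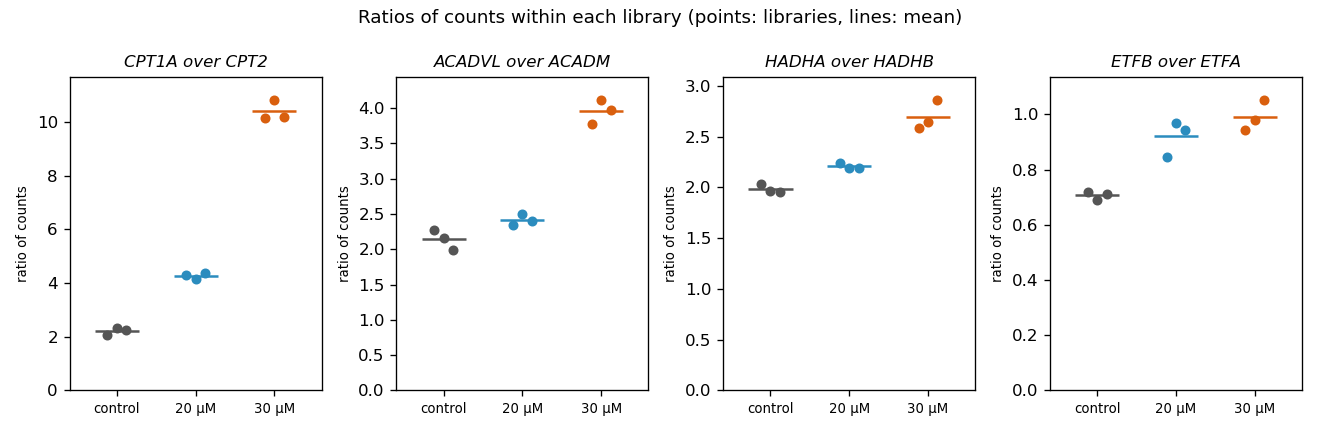
Ratio of the counts of 2 members within each library, with points for libraries and a line for the mean of the 3, on axes that start at 0. The mean ratio rises from 2.20 through 4.28 to 10.4 for CPT1A over CPT2, from 2.14 through 2.42 to 3.95 for ACADVL over ACADM, from 1.98 through 2.21 to 2.69 for HADHA over HADHB and from 0.707 through 0.920 to 0.991 for ETFB over ETFA.

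These ratios compare genes that act side by side and do not depend on how libraries are scaled, but the pairs were chosen after the values were seen. CPT1A over CPT2 was 2.06, 2.31 and 2.25 in controls, 4.31, 4.15 and 4.37 at 20 µM and 10.2, 10.8 and 10.2 at 30 µM, with wide gaps between the groups. ACADVL over ACADM was 2.28, 2.16 and 1.99 in controls, 2.35, 2.50 and 2.40 at 20 µM and 3.77, 4.11 and 3.98 at 30 µM. The step to 30 µM was larger than the step to 20 µM for both pairs.

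The peroxisomal oxidases open the peroxisomal cycle and release hydrogen peroxide. ACOX2 (ENSG00000168306.13, chr3:58505136-58537319, minus strand), which acts on branched chains and bile acid precursors, was at 22.9, 24.99 and 23.5 CPM in controls, 31.8, 31.1 and 31.9 at 20 µM and 12.4, 11.7 and 13.2 at 30 µM. The groups did not overlap, with 20 µM highest and 30 µM lowest. The log2 change was 0.41 (SE 0.066, adjusted p = 6.02e-06) at 20 µM, -0.93 (SE 0.072, adjusted p = 3.11e-13) at 30 µM and -1.34 (SE 0.071, adjusted p = 2.40e-17) between the doses. ACOX3 (ENSG00000087008.16, chr4:8366282-8440723, minus strand), a further oxidase for branched chains, was at 17.6, 17.2 and 16.5 CPM in controls, 16.9, 18.4 and 18.7 at 20 µM and 18.8, 18.7 and 17.3 at 30 µM. Its groups lay close together, with log2 values of 0.075 (SE 0.076, adjusted p = 0.499) and 0.094 (SE 0.076, adjusted p = 0.296), and with library size alone the 30 µM value was -0.12. The count of ACOX3 over that of ACOX2 averaged 0.720 (SD 0.045) in the 3 controls, 0.570 (SD 0.032) in the 20 µM libraries and 1.47 (SD 0.146) in the 30 µM libraries.

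The later peroxisomal steps all fell at 30 µM. EHHADH (ENSG00000113790.11, chr3:185190624-185281990, minus strand), the peroxisomal bifunctional enzyme that hydrates and then oxidises straight chains, was at 54.7, 54.3 and 53.8 CPM in controls, 48.4, 47.3 and 50.2 at 20 µM and 19.2, 21.01 and 17.4 at 30 µM. The groups did not overlap, and the drop at 30 µM was the steepest of any member, at -1.50 (SE 0.061, adjusted p = 1.00e-20), or 2.82-fold lower than control. The 20 µM change of -0.16 (adjusted p = 0.0244) lost its call without control 1 (adjusted p = 0.0646), control 2 (adjusted p = 0.0631), 20 µM 1 (adjusted p = 0.0578) or 20 µM 2 (adjusted p = 0.0849). HSD17B4, the other bifunctional enzyme, which serves branched chains and bile acid precursors, fell by 0.46 at 30 µM, and ACAA1, the peroxisomal thiolase, by 0.39. At 20 µM these were at -0.035 and 0.041, neither past the test. The opposite-strand gene DLEC1 overlaps 19.7% of the exon bases of ACAA1.

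The genes that send shortened chains out of the peroxisome as carnitine esters differed. CROT (ENSG00000005469.12, chr7:87345681-87399795, plus strand), carnitine octanoyltransferase, was at 6.66, 7.79 and 9.22 CPM in controls, 7.995, 5.30 and 5.95 at 20 µM and 3.75, 3.997 and 3.26 at 30 µM. Control and 20 µM libraries overlapped and spread widely at this low level, and all 30 µM libraries were lower, with a log2 change of -1.11 (SE 0.16, adjusted p = 2.78e-07). At 20 µM the value was -0.30 (adjusted p = 0.12), which passed the test without control 1 (-0.41, adjusted p = 0.0436) or 20 µM 1 (-0.49, adjusted p = 0.0131). CRAT, carnitine acetyltransferase, rose by 0.40 (SE 0.051, adjusted p = 1.21e-07) at 20 µM and was at -0.0020 (SE 0.052, adjusted p = 0.977) at 30 µM. The peroxisomal thioesterase ACOT8 rose by 0.23 at 20 µM (adjusted p = 0.0295), a call lost without control 1 (adjusted p = 0.159), 20 µM 3 (adjusted p = 0.149) or the 3 libraries that deviated together (0.13, adjusted p = 0.351), and with DESeq2 (adjusted p = 0.051). At 30 µM it was at -0.12 (adjusted p = 0.211), which passed without those 3 libraries (-0.24, adjusted p = 0.034). SNX21, on the other strand, overlaps 35.3% of its exon bases. PEX11A, which promotes peroxisome division, had a mean of 5.44 CPM in controls and fell by 0.85 at 30 µM (SE 0.15, adjusted p = 9.58e-06).

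**Figure D4:**
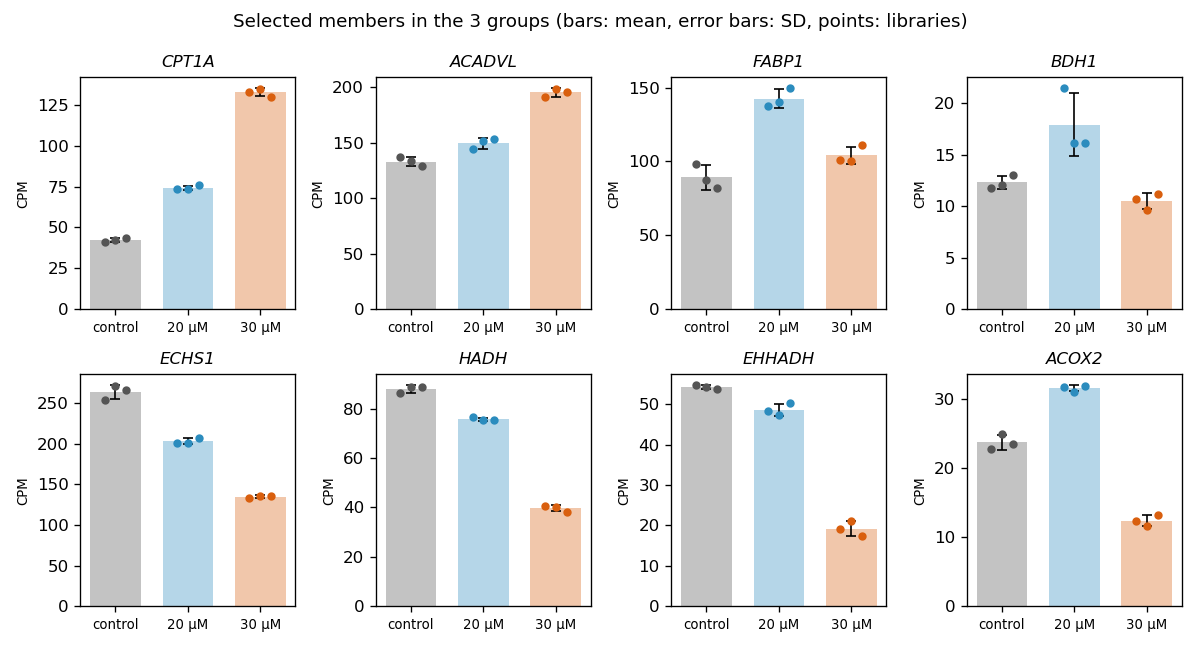
CPM of 8 members in control, 20 µM and 30 µM libraries, with bars for the mean, error bars for the SD of 3 libraries and points for libraries, each axis starting at 0. CPT1A and ACADVL rise with dose, FABP1, BDH1 and ACOX2 are highest at 20 µM, and ECHS1, HADH and EHHADH fall with dose.

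The ketone body members moved in opposite directions at 20 µM. BDH1 (ENSG00000161267.12, chr3:197509783-197573323, minus strand), which interconverts acetoacetate and 3-hydroxybutyrate, was at 11.8, 12.1 and 13.1 CPM in controls, 21.5, 16.1 and 16.2 at 20 µM and 10.7, 9.64 and 11.2 at 30 µM. All 20 µM libraries were higher than the controls and all 30 µM libraries lower, with 20 µM 1 apart from the other two. The log2 change was 0.54 (SE 0.1, adjusted p = 5.55e-05) at 20 µM and -0.23 (SE 0.11, adjusted p = 0.0623) at 30 µM, the latter not past the test. The 30 µM value passed without 30 µM 3 (-0.27, adjusted p = 0.0476), without the 3 libraries that deviated together (-0.31, adjusted p = 0.0315) and with upper-quartile scaling (-0.29, adjusted p = 0.0181). ACAT1 (ENSG00000075239.14, chr11:108121516-108147776, plus strand), the mitochondrial acetoacetyl-CoA thiolase, was at 94.1, 85.9 and 88.2 CPM in controls, 78.6, 80.2 and 79.7 at 20 µM and 69.1, 70.8 and 71.2 at 30 µM. Its groups did not overlap and fell with dose, with log2 changes of -0.17 (SE 0.043, adjusted p = 0.00203) and -0.35 (SE 0.044, adjusted p = 2.05e-08). Without the 3 libraries that deviated together the 20 µM value was -0.14 (adjusted p = 0.0519).

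FABP1 (ENSG00000163586.10, chr2:88122982-88128116, minus strand), which carries fatty acids through the cytosol of hepatocytes, was at 98.5, 87.5 and 81.8 CPM in controls, 138, 140.2 and 149.5 at 20 µM and 101, 101 and 111 at 30 µM. All treated libraries lay above all controls, and the 20 µM libraries lay above the 30 µM libraries. It rose by 0.67 (SE 0.06, adjusted p = 2.95e-07) at 20 µM and by 0.22 (SE 0.061, adjusted p = 0.00508) at 30 µM, and was lower at 30 µM than at 20 µM, at -0.45 (SE 0.06, adjusted p = 9.63e-06). With library size alone the 30 µM change was 0.014 (adjusted p = 0.83). CYP4A11 (ENSG00000187048.14, chr1:46929177-46941484, minus strand), a fatty acid omega-hydroxylase of adult liver and kidney, had 0 counts in all 9 libraries and was not tested. A count of 0 allows up to 3 counts, or 0.107 to 0.139 CPM per library, for counting error only.

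Levels of different members can be compared only per length, here as CPM per kilobase of merged exons in controls, an approximate scale because a gene's transcripts differ in length. ECHS1 was highest at 163 ± 5.19 (SD, n = 3), followed by HADHA at 76.2 ± 1.58, ACADSB at 53.6 ± 0.210 and HADHB at 39.4 ± 0.466. At the low end were CPT2 at 1.84 ± 0.080, SLC22A5 at 1.78 ± 0.066, PEX11A at 1.71 ± 0.142, CROT at 1.58 ± 0.258 and BDH1 at 1.35 ± 0.072. Within 1 SD the first 4 of these overlapped, and BDH1 overlapped only CROT. CPT1A was at 6.46 ± 0.206 per kilobase in controls and averaged 20.2 at 30 µM. ECHS1 averaged 83.5 per kilobase at 30 µM and remained the highest. In bulk RNA, fewer cells expressing a gene and less RNA per cell cannot be told apart.

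**Figure D5:**
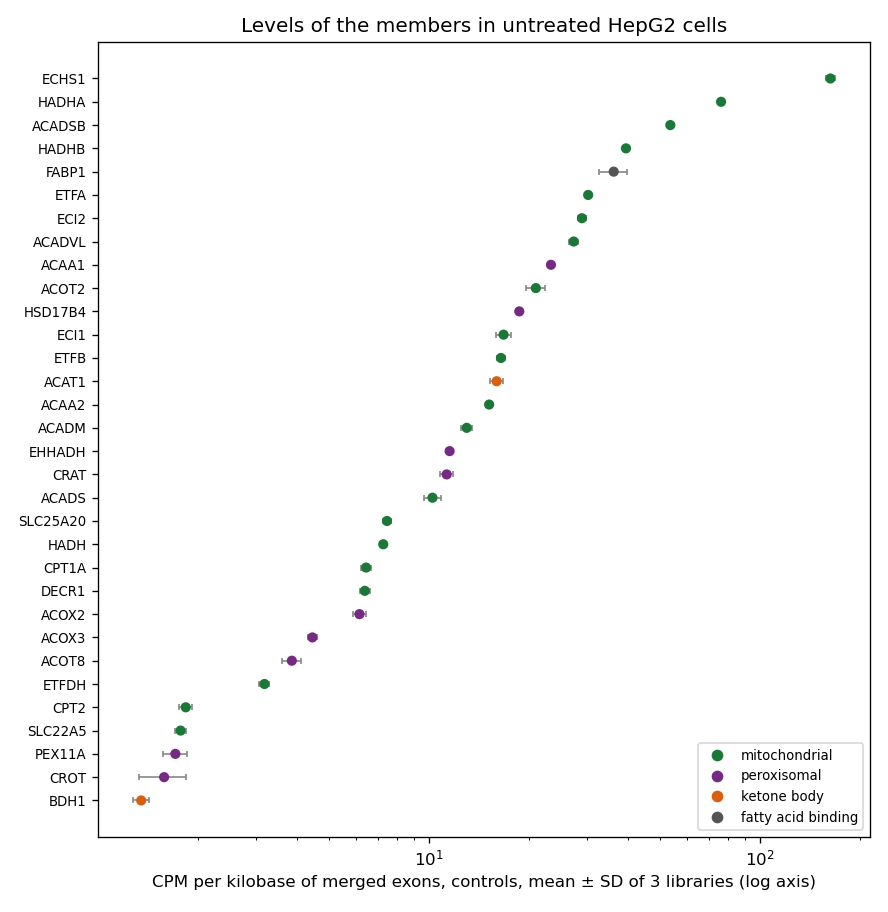
Level of each tested member in untreated HepG2 cells, in CPM per kilobase of merged exons on a log axis, as the mean and SD of 3 control libraries, coloured by class. ECHS1 stands highest at 163 and BDH1 lowest at 1.35.

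Other genes of the pathway and around it were read from textbook lists that share no symbol with the members. The genes named from them have a mean of at least 5 CPM unless stated. Each list's counts stand beside the shares over all genes tested, 17.2% higher and 16.9% lower at 20 µM and 29.5% higher and 31.3% lower at 30 µM, with no test of the list. Of 29 genes in a broad list of other mitochondrial fatty acid oxidation, 26 were tested. The list also holds genes of amino acid, choline and propionate breakdown, among them IVD, GCDH, DMGDH, SARDH and MMUT, which fell at 30 µM. Its counts, which also take in the cytosolic ACOT1, therefore do not describe beta-oxidation alone. At 20 µM 8 rose (30.8%) and 2 fell (7.69%), with a median log2 change of 0.012, and at 30 µM 7 rose (26.9%) and 16 fell (61.5%), with a median of -0.24. The rises included acyl-CoA synthetases, which activate fatty acids for oxidation or for lipid synthesis. ACSL1 went from 71.8 ± 0.549 CPM in controls to 121 ± 5.62 and 131 ± 1.39 at the 2 doses, with log2 changes of 0.76 (adjusted p = 4.71e-16) and 0.87 (adjusted p = 6.06e-19). ACSL3 and ACSL5 rose by 1.26 and 1.25 at 30 µM, and ACSF2, a mitochondrial acyl-CoA synthetase, fell by 1.21. CPT1B, the muscle form of carnitine palmitoyltransferase 1, lay below 5 CPM, at 0.632 CPM in controls, and is named after its values were seen. It had 11, 15 and 23 counts in controls and 1, 5 and 12 at 30 µM, so the groups overlapped. Its log2 change at 30 µM against control was -1.29 (SE 0.53, adjusted p = 0.0351). Malonyl-CoA decarboxylase, MLYCD, which removes the inhibitor of CPT1A, rose by 0.48 at 20 µM and fell by 0.77 at 30 µM (adjusted p = 7.92e-07). Its log2 change between the doses was -1.25.

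Of 22 other peroxisomal oxidation genes, 18 were tested, with 8 higher (44.4%) and 3 lower (16.7%) at 20 µM (median 0.14) and 6 higher (33.3%) and 7 lower (38.9%) at 30 µM (-0.22). The shares at 30 µM were near those of all genes. ABCD3, a peroxisomal fatty acyl-CoA transporter, fell by 0.41 and 0.77, and PECR, a peroxisomal enoyl-CoA reductase, by 0.24 and 0.98. Catalase, CAT, which breaks down the hydrogen peroxide the oxidases release, rose by 0.15 at 20 µM and fell by 0.69 at 30 µM. Of 18 genes of peroxisome assembly and division, 16 were tested, with 2 higher (12.5%) and 3 lower (18.8%) at 20 µM and 4 higher (25%) and 6 lower (37.5%) at 30 µM, again near the shares of all genes. The largest change against control among them was that of PEX10, of the receptor-recycling ligase, which fell by 0.43 and 0.62.

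Of 9 other ketone body genes, 7 were tested, with 2 higher (28.6%) and 3 lower (42.9%) at each dose against control. OXCT1, which uses ketone bodies in extrahepatic tissue, fell by 0.50 and 0.96. The monocarboxylate transporter family member SLC16A6 averaged 4.44 ± 0.325, 3.17 ± 0.788 and 15.4 ± 0.460 CPM and changed by -0.49 (adjusted p = 0.00901) at 20 µM and 1.79 (adjusted p = 3.09e-14) at 30 µM.

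Of 24 regulators of fatty acid oxidation, 23 were tested. At 20 µM 10 rose (43.5%) and 1 fell (4.35%), with a median of 0.13, and at 30 µM 11 rose (47.8%) and 8 fell (34.8%), with a median of 0.070. LPIN1, a phosphatidate phosphatase and coactivator of PPARA, rose by 1.06 and 1.89, and PPARGC1A, the coactivator PGC-1 alpha, by 0.65 and 0.53. ACACB, whose product malonyl-CoA inhibits CPT1A, fell by 1.41 at 30 µM (adjusted p = 3.25e-21) and was at -0.13 at 20 µM (adjusted p = 0.0523). PRKAA2, a catalytic subunit of AMP-activated kinase, and the nuclear receptor PPARG rose by 1.20 and 1.16 at 30 µM. PPARA itself, chosen after its values were seen, averaged 84.5 ± 4.87 CPM in controls, 105 ± 2.14 at 20 µM and 70.2 ± 1.41 at 30 µM, with log2 changes of 0.32 (adjusted p = 3.9e-07) and -0.27 (adjusted p = 3.82e-06).

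Of 18 other PPARA targets, 15 were tested, with 10 higher (66.7%) and 0 lower at 20 µM (median log2 change 0.50) and 7 higher (46.7%) and 4 lower (26.7%) at 30 µM (0.23). Some of its genes, among them ACSL1, ACOT1 and CREB3L3, also stand in lists above. PLIN2, a lipid droplet coat protein, was at 130.4 ± 6.63, 159 ± 5.09 and 386 ± 4.81 CPM, a log2 change of 0.29 (adjusted p = 1.71e-07) and 1.57 (adjusted p = 5.64e-27). TXNIP, which binds thioredoxin, rose by 1.12 and 1.58. ACOT1, a cytosolic thioesterase, rose by 0.62 at 20 µM and fell by 0.18 at 30 µM.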

How the data were processed

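The values used are raw counts of reads per gene, which the authors deposited as 1 file per library. Per the submitters' processing notes they used FastQC, STAR 2.7.10a and HTSeq on hg38. For the strand setting and for the annotation, a release or option is not given in the sources used here. Members that overlap a gene on the opposite strand are therefore uncertain. Per the labels' protocols ribosomal RNA was depleted from total RNA with a stranded kit, while the molecule is labelled as polyA RNA. The series text also names a 10 µM dose, not analysed here, and a further incubation of 48 h that the labels do not tie to these libraries. A reference gene table gave a symbol to 62639 of 62703 identifiers, and all 178 listed symbols were matched. Positions and exon lengths come from GENCODE 29 (GRCh38).

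From the counts, genes were kept with filterByExpr (17623 tested), scaled by TMM and fitted with edgeR 4.0.16 quasi-likelihood (robust, 1 mean per group over the 9 libraries, biological coefficient of variation 0.0529), run under R 4.3.3. Each SE is the log2 change divided by the root of its F statistic. P-values were adjusted by Benjamini-Hochberg over all genes tested in a comparison and read at 0.05, and CPM was computed on library sizes scaled by TMM. HTSeq's closing totals were left out of the genes.

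The members and the other lists were chosen with earlier results of these data known. Every library's value is printed for members past the test with at least 5 CPM, no overlap of the groups and a log2 change of at least 0.5 in a comparison, for both ketone body members and for those past the test in no comparison. From other lists up to 4 genes per comparison, those with the largest changes among genes past the test with a mean of at least 5 CPM, could be named, and a part of these are given. Some items are withheld for evaluations and are not reported here. Alternatives were size factors by median ratio or upper quartile, library size alone, DESeq2 1.42.0, no filter, only the groups compared, a replicate block, each library left out, and the 3 libraries that deviate together left out. Between replicates of a group the chi-square per gene was 2.10 to 8.02, so no pair agreed within sampling noise.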

Additional observations from a re-analysis of the deposited data

How the results depend on the processing

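Over all alternatives, 1261 member values kept their direction and side of the threshold, 39 lost their call, 17 gained one and 27 changed sign, the last all in values that had not passed the test. With ECI2 counted as peroxisomal and CRAT as mitochondrial, the mitochondrial median was 0.106 at 20 µM and -0.245 at 30 µM against control, and the peroxisomal median -0.594 at 30 µM. Upper-quartile scaling gave mitochondrial and peroxisomal medians of -0.358 and -0.517 at 30 µM, and of -0.409 and -0.509 from 20 µM to 30 µM. Library size alone gave -0.507 and -0.665, then -0.526 and -0.626, with 2 members higher at 30 µM. The mitochondrial median at 20 µM ranged from -0.00356 to 0.0489 with each library left out and was -0.00326 without the 3 libraries that deviate together. The causes were not tested.

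Signs changed for CRAT at 30 µM against control (0.0214 with median-ratio factors, 0.0216 with DESeq2, 0.00933 without a filter, 0.0137 with only the groups compared, -0.0435 to 0.0275 with a library left out) and for ACADM at 20 µM (0.00972 with upper-quartile factors, -0.0332 to 0.0241 with a library left out). ETFDH at 30 µM against control ranged from -0.147 to 0.0403 (without 30 µM 3) and was 0.0114 without the 3 libraries, and ACOX3 was -0.116 with library size alone. Between the doses HADHA, ETFB and ACOX3 were at -0.0725, -0.0577 and -0.0570 with upper-quartile factors and at -0.190, -0.175 and -0.174 with library size alone. With only the groups compared HADHA was at -0.00304. With a library left out, HADHA ranged from -0.00953 to 0.0251, ETFB from -0.0197 to 0.0624 and ACOX3 from -0.0280 to 0.0586.

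Correlations of deviations across genes between libraries of the same number ran from -0.35 to 0.37, with no common sign. Deviations within a group sum to 0, so these correlations cannot decide whether replicate numbers pair the samples. With a replicate block 12 members rose and 7 fell at 20 µM, 4 and 21 at 30 µM, and 2 and 26 between the doses, where ETFA lost its call (adjusted p = 0.0555), as it did under 9 further alternatives. Depth limits CROT, PEX11A and BDH1 most, which had the fewest counts among the tested members.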
